A study of Arabidopsis thaliana with 8 samples.

Results

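The beta-tubulins of Arabidopsis thaliana are encoded by 9 nuclear genes, TUB1 to TUB9, and were taken here by their locus identifiers: TUB1 (AT1G75780), TUB2 (AT5G62690), TUB3 (AT5G62700), TUB4 (AT5G44340), TUB5 (AT1G20010), TUB6 (AT5G12250), TUB7 (AT2G29550), TUB8 (AT5G23860) and TUB9 (AT4G20890). All 9 were among the 27416 genes of the table, and all 9 passed the filter on low counts that left 15664 genes for testing. Ribosome footprints, which are what remains of an mRNA under a translating ribosome after RNase digestion, were counted on coding sequences in 8 libraries, 4 from root and 4 from shoot. The plants were 4-day-old Col seedlings grown in shaken liquid medium with sucrose and harvested 3 h after lights on, with no mutant, transgene or treatment named. Each tissue was extracted once in each of 4 polysome buffers that all held detergents, DTT, DNase I and cycloheximide, which stalls ribosomes. KCl was at 50 mM in buffer A, 40 mM in B and D and 30 mM in C. MgCl2 was at 25 mM in A, 20 mM in B and D and 15 mM in C. Tris was at 200 mM except in D, where it was at 100 mM.

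Beta-tubulin pairs with alpha-tubulin into the dimer from which microtubules are built. In plants these form the cortical array that guides cellulose deposition during cell expansion, and the preprophase band, spindle and phragmoplast of dividing cells. Newly made tubulin passes through prefoldin and a chaperonin, and folding cofactors then assemble the dimer, while gamma-tubulin complexes start new microtubules. The beta-tubulins are very similar proteins, called isotypes, and missense alleles of several Arabidopsis tubulin genes are known to twist the growth of seedlings.

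The root libraries totalled between 1120218 and 3410266 counts and the shoot libraries between 3746348 and 4501213, and the 9 genes together took between 4022 and 12098 of them per library. Nothing in the labels says that the 4 libraries of a tissue came from separate plants. The p-values thus reflect scatter among the libraries alone, which may be technical, with that of each gene moderated by that of all genes. Footprint counts combine mRNA level with translation. In such bulk samples, fewer cells of a type and less RNA per cell cannot be told apart. The tissue labels were checked against markers. The 5 root markers, among them the Casparian strip gene CASP1 and the root hair gene PRP3, summed to 1718 to 2239 CPM in root against 73.4 to 163 CPM in shoot. The 5 shoot markers, among them the antenna gene CAB1 and the Rubisco small subunit gene RBCS1A, summed to 35588 to 40623 CPM in shoot and 211 to 304 CPM in root, and no marker was at 0 in a tissue. CPM here is the footprint count scaled to a common library size, by the library total and by a TMM factor, which sets the bulk of genes level between libraries.

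The summed beta-tubulin level did not separate the tissues on this scale. The 9 genes summed to 3026, 2868, 3170 and 2936 CPM in the root libraries of buffers A to D, and to 2996, 2887, 3011 and 3156 CPM in those of shoot. The means were 3000.2 ± 130 CPM in root against 3012 ± 110 CPM in shoot (SD, n = 4 each), and the groups overlapped. The result depends on the scaling. As a share of all counts, without the TMM factor, the family held 0.356 ± 0.0133% in root and 0.254 ± 0.0113% in shoot, with all 4 root libraries above all 4 shoot libraries. For comparison, the median log2 fold change of all tested genes, root minus shoot, was -0.12 with TMM factors and 0.38 with library totals alone, and the share of called genes that were higher in root was 44.0% and 64.0%.

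**Figure D1:**
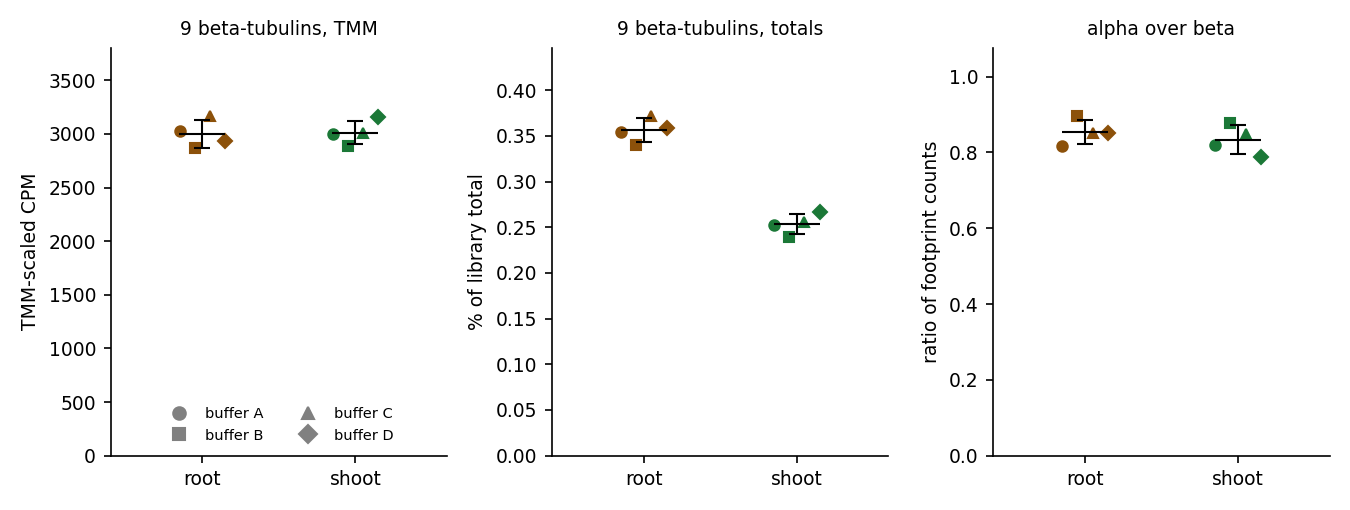
Left, the summed level of the 9 beta-tubulin genes in TMM-scaled CPM; middle, the same sum as a percentage of the library total; right, the ratio of alpha-tubulin to beta-tubulin footprint counts, each point a library and each bar the mean ± SD of 4. With TMM scaling the tissues overlap at 3000.2 and 3012 CPM, while as shares of the total the root libraries all lie above the shoot libraries.

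The mix of isotypes differed between the root and shoot libraries. It also varied among libraries of one tissue. The chi-square of the 9 counts between pairs of libraries, on 8 degrees of freedom, was 40.6 to 73.8 in root and 13.8 to 36.6 in shoot. TUB4, TUB8 and TUB1 were higher in root and TUB3 was lower (edgeR quasi-likelihood test, Benjamini-Hochberg adjusted p under 0.05 over all 15664 genes). These 4 of 9 genes compare with 40.3% of all genes tested, 17.8% higher in root and 22.6% lower, so the share of members called was near that of genes at large. The differences were small, from -0.35 to 0.60 in log2 over all 9 members, with a median of -0.21.

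TUB4 was the beta-tubulin with the most footprints in root. It had 766, 767, 914 and 753 CPM in root A, B, C and D, and 607, 561, 594 and 616 CPM in the shoot libraries. Every root library lay above every shoot library, and root C stood apart from the other 3 root libraries. The means were 800.1 ± 76.2 CPM in root against 594.5 ± 24.1 CPM in shoot, a 1.35-fold difference, with a log2 fold change of 0.43 ± 0.10 (SE) and an adjusted p of 0.00480 in the edgeR test. Without root C it was 0.36 (edgeR adjusted p = 0.0469), and without shoot C in its place 0.34 (edgeR adjusted p = 0.0419).

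TUB8 had the largest fold of the family and its lowest counts. The root libraries held 179, 191, 162 and 121 CPM in the order A to D, and the shoot libraries 108, 120, 93.2 and 108 CPM. The groups did not overlap, though root D, the library with the lowest total, was only just above shoot B. TUB8 averaged 163 ± 30.4 CPM in root against 107 ± 10.8 CPM in shoot, 1.52-fold, with a log2 fold change of 0.60 ± 0.15 (edgeR adjusted p = 0.00939). Promoter reporters of TUB8 and TUB1 are known to mark largely different cells of the plant.

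TUB1, whose transcript is known to fall in light, was higher in root by a smaller amount. It had 237, 235, 249 and 216 CPM in root against 165, 171, 186 and 197 CPM in shoot. No shoot library reached the lowest root library. The log2 fold change was 0.39 ± 0.13 (edgeR adjusted p = 0.0301), with means of 234 ± 13.6 and 180 ± 14.2 CPM.

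TUB3 was lower in root. The root libraries gave 504, 520.1, 539 and 502 CPM and the shoot libraries 667, 636, 649 and 696 CPM, so the groups were far apart and the spread within each was small. The means were 516 ± 16.96 CPM in root against 662 ± 26.1 CPM in shoot, a log2 fold change of -0.35 ± 0.10 (edgeR adjusted p = 0.0128). With library totals alone the value was 0.15 (adjusted p = 0.232), so the sign for TUB3 depends on the scaling. That scale raised all 9 members by nearly the same amount, so genes already higher in root were bound to stay so. TUB4, TUB8 and TUB1 were at 0.93, 1.102 and 0.89 there, and all 3 passed.

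The calls also differed in how far they held when libraries were left out. In each such fit the buffer term takes up the partner library, so the whole buffer pair leaves the tissue comparison. Fits without the root and without the shoot library of a buffer are thus nearly the same check. When each of the 8 libraries was left out in turn, TUB4 passed in 8 of 8 fits and TUB3 in 7 of 8, the exception being the fit without root A (adjusted p = 0.0520). TUB8 passed in 4 of 8 fits, with a log2 fold change between 0.52 and 0.73, and was not called without root A, root B, root C or shoot C (adjusted p between 0.0514 and 0.0640). TUB1 passed in 2 of 8 fits, those without root D and without shoot D, and elsewhere had an adjusted p between 0.105 and 0.132 at a log2 fold change of 0.33 to 0.37. Calls became fewer over all genes too. In the main fit 40.3% of genes tested were called, against 32.5 to 33.2% without an A, B or C library. Without root D and without shoot D the shares were 37.3 and 37.5%.

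TUB2 is the neighbour of TUB3 on the chromosome and nearly identical to it. It had 446, 406, 452 and 487 CPM in root against 517, 522, 531 and 556 CPM in shoot. Within root its lowest library was B and its highest D, where TUB3 was lowest. The root and shoot libraries did not overlap, but the difference did not pass, at -0.25 ± 0.10 in log2 (edgeR adjusted p = 0.0698). The ratio of TUB2 to TUB3 counts was 0.868 ± 0.0798 in root and 0.803 ± 0.0212 in shoot and overlapped between the tissues. How reads that match both genes were counted is not given in the sources used here, so the division between them is uncertain. With the pair added into a single gene before the fit, the pair was lower in root at -0.30 (edgeR adjusted p = 0.0128).

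TUB5, TUB6, TUB7 and TUB9 did not pass either, which does not show that their levels were alike. TUB7 had 200, 202, 235 and 210 CPM in root against 264, 239, 272 and 243 CPM in shoot. Its groups did not overlap, and its log2 fold change was -0.26 ± 0.12 (edgeR adjusted p = 0.104). TUB5 had 209, 185, 150 and 165 CPM in root against 217, 196, 236 and 259 CPM in shoot, which overlap, with a value of -0.35 ± 0.15 (edgeR adjusted p = 0.0902).

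TUB6, a gene whose transcript is known to fall in the cold, had 258, 201, 272 and 231 CPM in root against 285, 278, 259 and 289 CPM in shoot. Root C exceeded the lowest shoot library, and the value was -0.21 ± 0.13 (edgeR adjusted p = 0.239). TUB9, best known for its expression in pollen, was present in both seedling tissues. It had 227, 161, 197 and 249.7 CPM in root against 165, 165, 191 and 192 CPM in shoot. Its spread was the widest relative to its mean in root after that of TUB8, at 18.4% against 18.6%, and its value was 0.22 ± 0.14 (edgeR adjusted p = 0.241). With library totals alone TUB9 passed as higher in root, at 0.72 (adjusted p = 0.00125), and TUB2, TUB5, TUB6 and TUB7 changed sign without passing. Over the family, 3 genes had all root libraries above all shoot libraries, against 19.6% of all tested genes, and 3 had all of them below, against 25.4%.

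**Figure D2:**
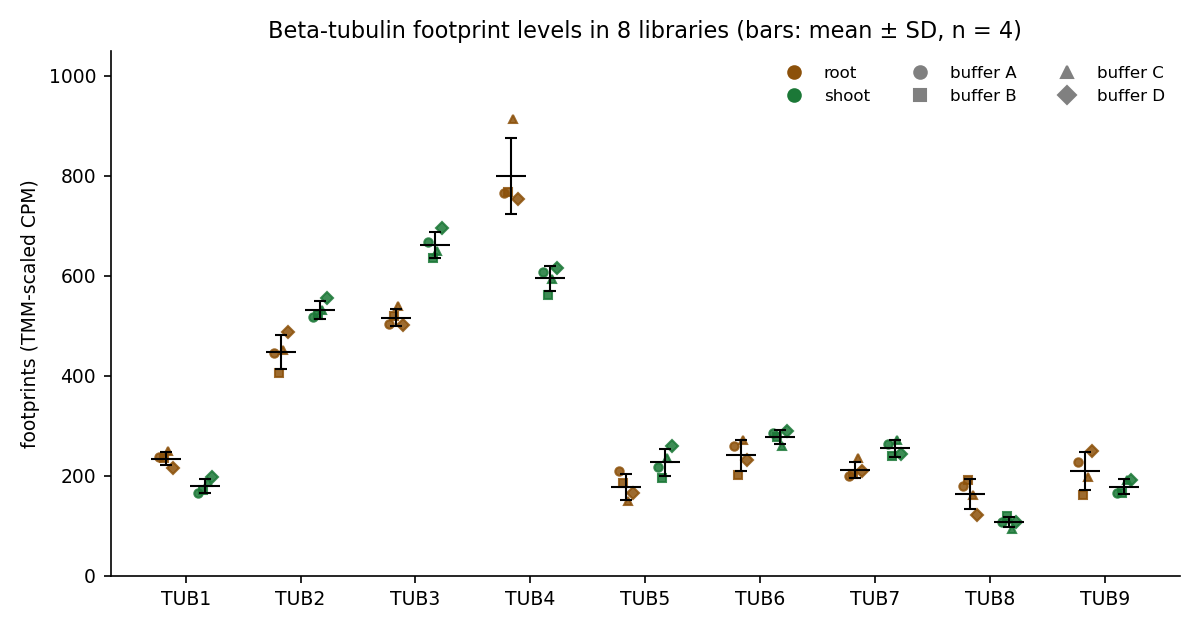
Footprint level of each beta-tubulin gene in TMM-scaled CPM, with each point a library (colour for tissue, shape for buffer) and bars for the mean ± SD of 4. TUB4 leads in root at 800.1 CPM and TUB3 in shoot at 662 CPM, and the root and shoot points of TUB5, TUB6 and TUB9 overlap.

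A change of scaling shifts all genes by nearly the same amount. The order of the members and their distance from the median were thus bound to hold. Relative to the median of all tested genes, TUB8, TUB4 and TUB1 were at 0.72, 0.55 and 0.50 with TMM factors and at 0.72, 0.55 and 0.51 with library totals alone. TUB3 was at -0.24 relative to that median with TMM factors and at -0.23 with library totals, and TUB5 at -0.23 with both. TUB6 was nearest to the median of all genes, at -0.09 with both.

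**Figure D3:**
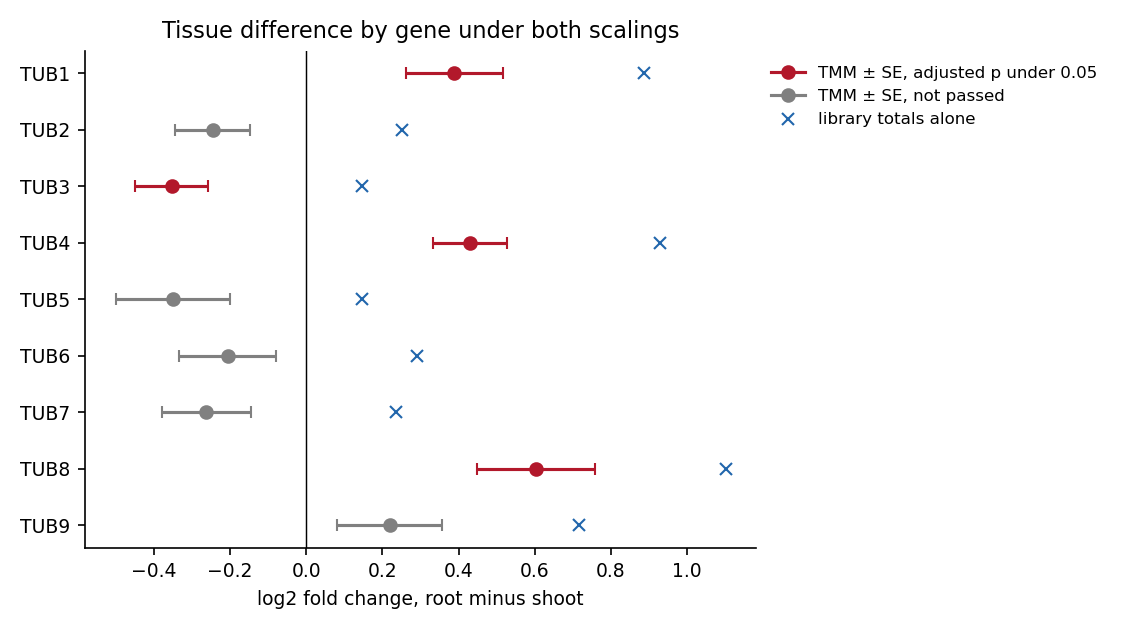
Log2 fold change of each gene, root minus shoot, as circles ± SE with TMM factors (red where the adjusted p was under 0.05, grey otherwise) and as crosses with library totals alone. TUB1, TUB4 and TUB8 are above 0 on both scales, while TUB3 moves from -0.35 to 0.15.

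Shares of the family counts describe the isotype mix with no scaling between libraries at all. They are shares of footprints, are not corrected for coding length, and their intervals cover counting error only. The shares of a library add up to a whole, so a larger share of TUB4 lowers those of the others. TUB4 made up 25.3, 26.7, 28.8 and 25.7% of beta-tubulin footprints in root A to D, and 20.3, 19.4, 19.7 and 19.5% in the shoot libraries. The means, 26.6 ± 1.59% and 19.7 ± 0.365%, differed by 6.90 percentage points, and the widest exact binomial 95% interval of a library was ±1.36 points. The difference lay between 6.17 and 7.34 points when each library was left out in turn.

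TUB3 gave the reverse picture, with 16.7, 18.1, 16.997 and 17.1% in root and a range of 21.5 to 22.3% in shoot, a difference of -4.75 points. TUB2 ranged from 14.1 to 16.6% in root and from 17.3 to 18.1% in shoot. Together the TUB2 and TUB3 pair held 32.2 ± 1.12% of beta-tubulin footprints in root and 39.6 ± 0.383% in shoot. The ratio of TUB4 to TUB3 counts, which is free of any scaling, was 1.52, 1.47, 1.70 and 1.5 in root and 0.909, 0.883, 0.915 and 0.886 in shoot. TUB4 thus exceeded TUB3 in each root library and was below it in each shoot library, as far as the uncertain division between TUB2 and TUB3 holds. Against the summed pair the ratio of TUB4 was 0.762 to 0.923 in root and 0.485 to 0.512 in shoot.

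TUB2, TUB3 and TUB4 together held 58.8 ± 1.46% of the family in root and 59.4 ± 0.393% in shoot. Of the less counted genes, TUB1 held 7.81 ± 0.338% in root and 5.97 ± 0.325% in shoot, and its libraries did not overlap. TUB8 held 5.45 ± 1.08% in root and 3.57 ± 0.437% in shoot, with root D at 4.13% just below shoot B at 4.14%. TUB7 held 7.06 ± 0.341% and 8.46 ± 0.596%, and TUB6 8.01 ± 0.732% and 9.22 ± 0.458%, both without overlap, although the highest root share of TUB6, 8.59%, almost met its lowest shoot share, 8.60%. In CPM the root and shoot libraries of TUB7 were also apart, while those of TUB6 overlapped. TUB5, at 5.93 ± 0.956% and 7.52 ± 0.625%, and TUB9, at 6.96 ± 1.29% and 5.92 ± 0.363%, overlapped between the tissues.

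**Figure D4:**
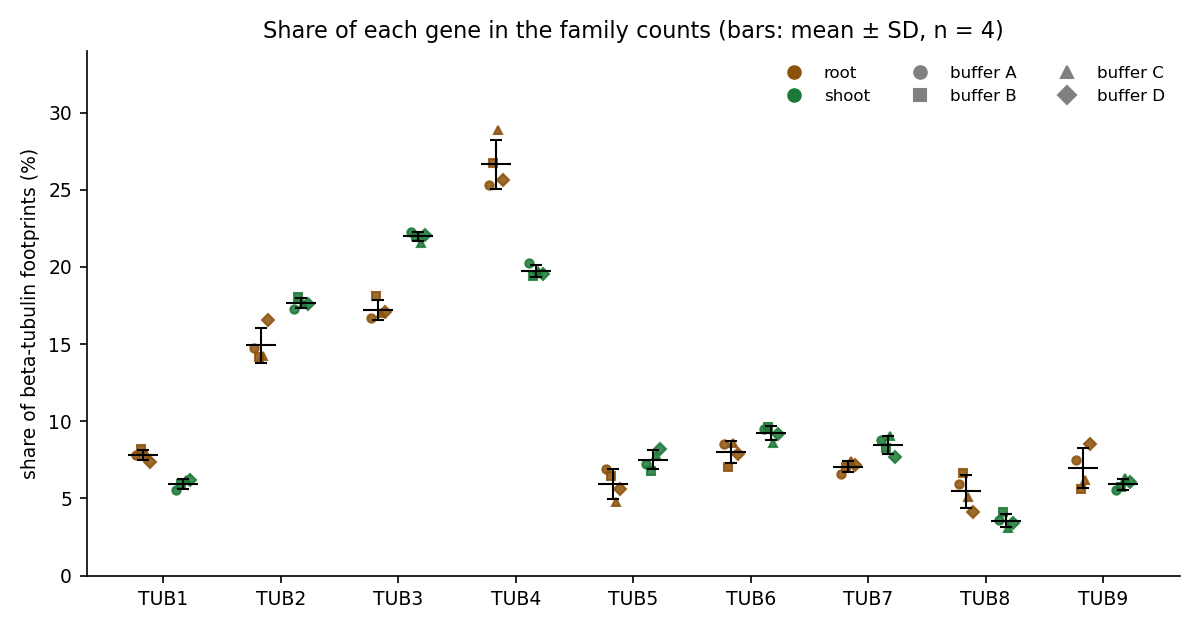
Share of each gene in the beta-tubulin footprint counts of a library, in percent, with points for libraries (colour for tissue, shape for buffer) and bars for the mean ± SD of 4. TUB4 falls from 26.6% in root to 19.7% in shoot, and TUB3 goes from 17.2% to 22.0%.

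The extraction buffer was the second factor of the study, and no beta-tubulin was called in any of its tests. In the test of any difference among the 4 buffers 0 of 9 members passed in edgeR, where 0.0575% of all genes did. At an unadjusted p under 0.05 there were 121 of all 15664 genes and 0 members. So few genes reached either threshold that 0 of 9 says little about the members. For buffer A minus C, the highest against the lowest salt, 0 members passed against 0% of all genes in edgeR, where 253 genes had an unadjusted p under 0.05 and 0 of these were members. Values ran from -0.14 for TUB7 to 0.18 for TUB8, with standard errors of 0.13 to 0.22. For buffer D minus B, the lower against the higher Tris, 0 members passed against 0.0447% of all genes. DESeq2 also called 0 members in each of these tests.

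The widest buffer values were those of TUB9 and TUB8, the genes that spread most in root. Each root library had its own buffer, so both measures draw on the same values. TUB9 had a log2 fold change of 0.41 ± 0.19 for D minus B (unadjusted p = 0.0580, edgeR adjusted p = 1.00), with 249.7 CPM in root D against 161 CPM in root B, and 192 against 165 CPM in shoot. TUB8 had -0.38 ± 0.22 (edgeR adjusted p = 1.00), with 121 against 191 CPM in root against 108 against 120 CPM in shoot. The test of whether the salt trend differed between root and shoot called 0 of 9 members, against 0% of all genes in edgeR. At an unadjusted p under 0.05 it had 618 genes and 0 members, and DESeq2 called 0 members. Its values, per 10 mM MgCl2, ran from -0.28 ± 0.28 for TUB4 to 0.60 ± 0.38 for TUB5. TUB5 was at 209 CPM in root A and 150 CPM in root C, and at 217 and 236 CPM in shoot A and C. KCl was in a fixed ratio to MgCl2 in these buffers, so the trend is equally one with KCl.

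**Figure D5:**
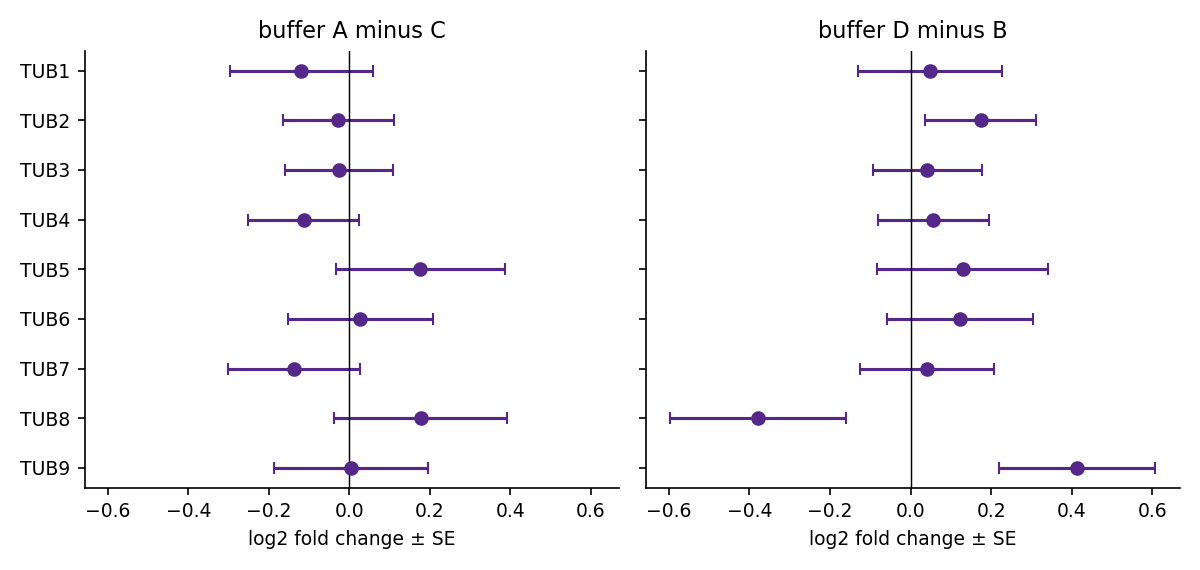
Log2 fold changes ± SE of each beta-tubulin gene for buffer A minus C (left) and buffer D minus B (right), with tissue as a term. TUB9 at 0.41 and TUB8 at -0.38 lie farthest from 0 in the comparison of D with B, and no gene passed the test.

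The alpha-tubulins, the partners of the beta-tubulins in the dimer, also summed to like levels in both tissues, at 2561 ± 100 CPM in root against 2507 ± 45.2 CPM in shoot. The ratio of alpha-tubulin to beta-tubulin footprint counts, which no scaling affects, was 0.818, 0.897, 0.851 and 0.851 in root and 0.819, 0.877, 0.849 and 0.788 in shoot, and the groups overlapped. Of the 6 alpha-tubulin genes 0 were higher in root and 1 was lower, with a median log2 fold change of -0.02 against -0.12 for all genes. TUA4, TUA6 and TUA2 had the most footprints, with values of 0.15 ± 0.09, 0.13 ± 0.09 and 0.19 ± 0.11, none of which passed, and with library totals alone these 3 were called higher in root at 0.65, 0.63 and 0.69. The lower gene was TUA1, an isotype known from pollen and named here after its values were seen. It had 11.5, 36.9, 11.8 and 7.30 CPM in root against 39.1, 53.0, 37.4 and 36.6 CPM in shoot (-1.498 ± 0.34, edgeR adjusted p = 0.00487), and root B overlapped the shoot libraries.

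Among listed genes that fold tubulin and assemble the dimer, those with a name in the reference gave 1 call with TMM factors. They gave more with library totals alone. Of 4 named folding cofactors 0 were lower in root and 1 was higher, and the median was 0.45, while library totals alone gave 2 higher and DESeq2 gave 1 higher and 1 lower. It was KIS (AT2G30410), cofactor A, which binds beta-tubulin, at 32.8 ± 1.65 CPM in root against 16.99 ± 5.28 CPM in shoot (1.00 ± 0.31, edgeR adjusted p = 0.0230). When libraries were left out, KIS passed only in the fits that dropped the buffer D pair, those without root D or without shoot D. Elsewhere its adjusted p was between 0.0559 and 0.117. TTN1 (AT3G60740), cofactor D, had a value of 0.75 ± 0.28 (adjusted p = 0.0583), and passed with library totals alone at 1.25 (adjusted p = 0.00379) and without the buffer term (adjusted p = 0.0331). POR (AT4G39920), cofactor C, named after its values were seen, went the other way at -1.31 ± 0.54 (edgeR adjusted p = 0.0800). Its level was low, at 4.99 ± 1.67 CPM in root against 12.3 ± 3.58 CPM in shoot, and all root libraries lay below all shoot libraries. Of the 6 prefoldin genes 0 passed in either direction in edgeR, 1 was at an unadjusted p under 0.05, and DESeq2 called 1 higher in root and library totals alone 2. PFD6, the most counted, had a value of 0.39 ± 0.29, against 0.18 without root B, 0.17 without shoot B and 0.89 with library totals alone (adjusted p = 0.0261). TCP-1 (AT3G20050), a chaperonin subunit, stood at 244 ± 27.6 CPM in root against 228 ± 20.1 CPM in shoot (0.10 ± 0.12, adjusted p = 0.576), and with library totals alone it passed at 0.59 (adjusted p = 0.00213). It was the only named locus of 9 on the chaperonin list, so its value does not stand for the other 8.

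Among genes that start microtubules, 0 of 5 named members of the gamma-tubulin complex passed in edgeR in either direction (0 at an unadjusted p under 0.05, 0 in DESeq2), with a median of -0.36, and the gamma-tubulin gene TUBG1 stood at 26.4 ± 3.05 CPM in root against 29.8 ± 1.602 CPM in shoot. Of 15 microtubule-associated proteins 2 were higher in root, 1 was lower and 12 did not pass, with a median of 0.03. With library totals alone 4 passed as higher, 0 passed as lower and the median was 0.52. CSI1 (AT2G22125), which links cellulose synthase to microtubules, was at 455 ± 27.3 CPM in root against 296 ± 19.7 CPM in shoot (0.63 ± 0.11, edgeR adjusted p = 8.03e-04). The other higher gene was EB1B (AT5G62500), a plus-end binding protein named after its values were seen, at 1.39 ± 0.39 (adjusted p = 0.0162). EB1B lost its call without root B, root C, shoot B or shoot C (adjusted p between 0.0651 and 0.0871). SPR1 (AT2G03680), a plus-end protein whose loss twists growth, was lower at -0.49 ± 0.17 (adjusted p = 0.0402) and was at 0.00 with library totals alone, and DESeq2 did not call it (adjusted p = 0.0566). It was not called when root A, B or C or shoot A, B or C was left out (adjusted p between 0.103 and 0.152).

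MOR1, which promotes microtubule growth, and CLASP, which stabilises microtubules at cell edges, had values of 0.03 ± 0.15 and -0.38 ± 0.16 and did not pass, though MOR1 did with library totals alone, at 0.52 (adjusted p = 0.0128). Of 7 genes of mitosis and cytokinesis 0 passed in either direction in edgeR (0 at an unadjusted p under 0.05, 0 in DESeq2, 1 higher with library totals alone), with values between -0.26 and 0.88. Their summed level was 130 to 169 CPM in root against 121 to 157 CPM in shoot. The mitosis and cytokinesis list was measured as a readout of dividing cells beside the isotype mix, and its part in the beta-tubulin differences was not tested.

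Each beta-tubulin was last set beside the 10927 genes outside the family with a mean of at least 10 CPM. Likeness was Pearson's r of log2 (CPM + 1) over the 8 libraries, which share tissue and depth, and is given as a description. TUB4 was most like NSP4 (AT3G16410), a nitrile specifier protein, with r = 0.991, and NSP4 stood at 719 ± 83.6 CPM in root against 515 ± 41.0 CPM in shoot. TUB3 was most like UBQ5 (AT3G62250), a ubiquitin fused to a ribosomal protein (r = 0.986), and TUB2 most like RACK1C_AT (AT3G18130), a ribosome-bound scaffold (r = 0.988). TUB1 was nearest to CYB-1 (AT5G38630), of the cytochrome b561 family (r = 0.990), TUB5 to the chaperone gene HSP90.1 (AT5G52640; r = 0.968) and TUB7 to the chaperone gene Hsp89.1 (AT3G07770; r = 0.980). The nearest genes of TUB6, TUB8 and TUB9 have no symbol and had r = 0.978, 0.979 and 0.979. Within the family TUB1 and TUB4 were each other's nearest (r = 0.931), as were TUB3 and TUB7 (r = 0.858), while the nearest to TUB9 was TUB1 at only 0.461.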

How the data were processed

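The authors deposited raw counts of ribosome footprints per gene on coding sequences, whole numbers in 1 column per library, without normalization. The submitters' processing notes list TAIR10, STAR 2.5.1b and Bowtie2, without roles. How reads were counted, which footprint lengths were kept and how a read matching more than 1 gene was treated were not given in the sources used here. Beta-tubulin coding sequences are alike, so short footprints may be counted at another member.

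Counts were tested in R 4.3.3 with edgeR 4.0.16 (TMM normalization, filterByExpr with a minimum count of 10 and a minimum total of 15, quasi-likelihood F test, terms tissue and buffer, 3 residual degrees of freedom). The test moderates the scatter of each gene with that of all genes, so its p-values draw on more than these 3. The salt trend was fitted with tissue, MgCl2 and Tris as terms and a separate MgCl2 slope for each tissue. P-values were adjusted by Benjamini-Hochberg over all 15664 genes tested and called at 0.05, and standard errors are the absolute log2 fold change divided by the square root of F. Shares have exact Clopper-Pearson 95% intervals (SciPy 1.17.1), and no coding length was used here. Buffer letters in the titles pair root with shoot libraries. Libraries of a tissue differed beyond sampling noise in every pair (chi-square per degree of freedom 4.52 to 8.84). None was thus taken as a copy of another, and each was counted once. This check cannot show that they came from separate plants. Alternatives were DESeq2 1.42.0, its size factors, library totals alone, the 210 organelle loci left out, no filter, no buffer term, the TUB2 and TUB3 pair summed, and each library left out. After leaving out a library, its buffer partner is the only sample of that buffer. The buffer term then fits the partner alone, so it adds nothing of its own to the tissue difference. In the buffer tests it is taken to vary as the remaining ones do. Names came from a RefSeq table of TAIR10.1, which matched 26719 of 27416 identifiers. Listed loci without a tubulin-related name there, 8 chaperonin, 1 gamma-tubulin and 1 cofactor entry, are not described.

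The members and lists were chosen with earlier results of these data known. All 9 members are named, with up to 3 of the most counted genes of each list, genes that passed against their list, and the most similar gene of each member. POR was added after its values were seen.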

Additional observations from a re-analysis of the deposited data

Results flagged for a closer look

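The level of TUB4 in root had 1 library far from the others. Root C was at 914 CPM while the other 3 root libraries lay between 753 and 767 CPM, a gap that took up 0.915 of the whole range, above Dixon's critical value for 4 samples. It was the only one of 54 groups of 4 values examined, over members' levels, shares and sums, and chance flags about 1 in 20. Without root C the log2 fold change of TUB4 was 0.36 (edgeR adjusted p = 0.0469), against 0.43 with it. That fit also takes shoot C out of the tissue comparison, so it does not isolate root C. Without shoot C in its place the value was 0.34 (edgeR adjusted p = 0.0419).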

How the results depend on the processing

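With library totals alone the summed beta-tubulin level, root over shoot in log2, went from -0.01 to 0.49. TUB2, TUB3, TUB5, TUB6, TUB7, TUBG1, CLASP and SPR1 then changed sign, to 0.25, 0.15, 0.15, 0.29, 0.24, 0.33, 0.12 and 0.0023. TUA2, TUA4, TUA6, TTN1, PFD6, TCP-1 and MOR1 gained a call there, at 0.69, 0.65, 0.63, 1.25, 0.89, 0.59 and 0.52. There 0 members were called lower, and 4767 genes were called higher in place of 2781. Without the filter on low counts 3 members were called lower, with TUB2 and TUB5 added (adjusted p = 0.0484 and 0.0401), TUB1 lost its call (adjusted p = 0.0739) and MOR1 was at -0.027. DESeq2, DESeq2 size factors and leaving out organelle loci called 3 members higher and 1 lower, as did the fit with no replicate block. In that unpaired fit the adjusted p was 0.00142 for TUB4, 0.00376 for TUB8, 0.0118 for TUB1 and 0.00399 for TUB3.

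Leaving out 1 library takes its buffer pair out of the tissue comparison. In such fits between 1 and 3 members were called higher and between 0 and 1 lower. Fewer of all genes were called there too, 32.5 to 37.5% against 40.3% in the main fit. MOR1 ranged from -0.11 to 0.088 and TCP-1 from -0.0040 to 0.136, with TMM factors. All 9 members kept their sign in each such fit, as they did in their share differences.

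No buffer or interaction test called a member in any setting run. Over all genes the test of any buffer called 9, and 14 with library totals, 1 without organelle loci, 23 without the filter and 32 in DESeq2, with 0 to 13 when 1 library was left out. Buffer D minus B called 7 higher, and 2 with DESeq2 size factors, 1 without organelle loci, 15 without the filter and 18 in DESeq2, with 0 to 16 higher and 0 to 1 lower when 1 library was left out. The interaction called 0, and without the filter 1 higher and 1 lower, with 0 to 7 higher when 1 library was left out. The causes of these changes were not tested. Shares per coding length were not run. The root libraries hold fewer counts than the shoot libraries, and the lowest member count was 166, for TUB8 in root D.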
